A study of Mus musculus with 16 samples.

Results

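The cytochrome P450 family was read across 4 groups of sorted cells from the olfactory mucosa of mice that carry the S100a5-tauGFP reporter, exposed to octanoic acid or to clean air. Members were taken by name, as every gene whose symbol has Cyp, a family number, 1 subfamily letter and a digit, which gave 97 of 19505 genes. Each has 1 probe set. Cyp51 and Cyp2ab1, named on another pattern, and 7 testis-type Cypt genes, which are no P450 genes, were outside that rule.

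P450 enzymes are haem proteins that insert an atom of oxygen into their substrates, and most sit in the endoplasmic reticulum and draw electrons from P450 oxidoreductase, some with help from cytochrome b5. Families 1 to 3 mainly oxidize foreign compounds, odorants among them, family 4 oxidizes the far end of fatty acid chains, and smaller families make or clear steroids, bile acids, vitamin D and retinoic acid. The olfactory mucosa is known for very high levels of a few of them, chiefly Cyp2g1 and Cyp2a5, in sustentacular cells, which support the neurons, and in Bowman glands.

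In these animals of both sexes, 7 to 12 weeks old, the S100a5 gene, which olfactory neurons switch on when active, drives GFP. The labels give no background strain. The mice were housed singly for 40 h with air flowing at 3.1 L per min, and from 26 h octanoic acid or filtered air was given for 10 s every 20 min. Tissue of 3 of the 24 mice made 1 pool, and each of 8 pools was sorted into GFP+ and GFP- cells, so that clean air GFP+, clean air GFP-, octanoic acid GFP+ and octanoic acid GFP- hold 4 Clariom S arrays each. Reporter and sort are shared by all 4 groups, and the GFP- cells are whatever did not glow, neurons included.

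Values are log2 signals as deposited, and differences are GFP+ minus GFP- of the same pool with the SD over 4 pools. S100a5 itself was higher in GFP+ cells by 1.32 in clean air and 1.53 with octanoic acid (limma adjusted p 0.000496 and 0.000139). Mature neuron markers averaged 16.2 to 16.5 on all arrays, far above the negative controls in both sorts, while 7 of 7 leukocyte, 4 of 6 immature neuron and at least 5 of 6 microvillous and tuft cell markers were lower in GFP+ cells under each treatment. At the same adjusted p under 0.05, 9.58% of all genes were lower in clean air and 10.9% with octanoic acid. In these bulk samples fewer cells of a type and less RNA per cell cannot be told apart. With arrays there is no sequencing depth, and 4 pools a group set the precision. The labels name no batch. The octanoic acid GFP+ array of pool 3 stood apart: it was the highest of the 8 GFP+ arrays for 45 of 97 members (46.4%) against 25.9% of all genes, and the lowest for 11 (11.3%) against 29.6%. Over all genes, too, these were the largest shares of any GFP+ array, so it was not odd for this family alone. Among the 24 members with a mean above the negative-control median it was the highest for 12 and the lowest for 7. Results that rest on this pool are given with and without it. It was singled out by the values of these same members, so p values without it are descriptive.

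Most of the family was dim. The negative-control probe sets had a median of 6.20, and 24 of 97 members (24.7%) had a mean above it, against 59.8% of all genes. The other 73 lay below it, 62 of them on each of the 16 arrays. A signal above that median is no proof of expression, since the 95th percentile of the controls was 10.4, and 4 members exceeded it on all 16 arrays: Cyp2a5, Cyp2g1, Cyp2j12 and Cyp2s1. By role, 15 of 58 members of families 1 to 3 had a mean above the median, 5 of 21 of family 4, 1 of 3 retinoic acid enzymes, 1 of 3 vitamin D enzymes, 1 of 6 bile acid and oxysterol enzymes, 0 of 5 steroid-making enzymes, and Cyp20a1, an orphan with no settled substrate.

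In position the members gather in a few places. Chromosomes 4, 19, 7, 17, 15 and 5 carry 19, 17, 15, 12, 11 and 10 of them. On chromosome 7 the annotation places 13 members in this order, other genes left out: Cyp2s1, Cyp2b10, Cyp2b13, Cyp2b9, Cyp2a4, Cyp2b23, Cyp2b19, Cyp2g1, Cyp2a5, Cyp2a22, Cyp2a12, Cyp2f2 and Cyp2t4. Of these, 5 had a mean above the negative-control median, Cyp2s1, Cyp2a4, Cyp2g1, Cyp2a5 and Cyp2f2, and the 8 others, which lie between and beside them, had not.

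Promoters of 6 members are shown so that their letters stand beside the values below: Cyp2a5, Cyp2a4, Cyp2f2 and Cyp1a2, whose means were lower in GFP+ cells with no call over all pools, and Cyp26b1 and Cyp2s1, called higher in GFP+ cells in clean air. Each runs from 250 bases before to 50 bases after the gene's start, from RefSeq on GRCm38.p6, at chr7:26835089-26835388 on the plus strand for Cyp2a5, chr7:26306942-26307241 plus for Cyp2a4, chr7:27119705-27120004 plus for Cyp2f2, chr9:57683606-57683905 minus for Cyp1a2, chr6:84593761-84594060 minus for Cyp26b1 and chr7:25816476-25816775 minus for Cyp2s1. Capitals mark the motifs found on either strand, and the windows of Cyp2f2 and Cyp2s1 hold none of the 5 searched.
Cyp2a5: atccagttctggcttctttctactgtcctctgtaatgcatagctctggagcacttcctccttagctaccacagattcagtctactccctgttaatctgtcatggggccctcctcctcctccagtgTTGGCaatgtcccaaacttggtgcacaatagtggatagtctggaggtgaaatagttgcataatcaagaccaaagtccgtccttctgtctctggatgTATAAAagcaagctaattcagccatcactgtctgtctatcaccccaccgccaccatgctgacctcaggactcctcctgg
Cyp2a4: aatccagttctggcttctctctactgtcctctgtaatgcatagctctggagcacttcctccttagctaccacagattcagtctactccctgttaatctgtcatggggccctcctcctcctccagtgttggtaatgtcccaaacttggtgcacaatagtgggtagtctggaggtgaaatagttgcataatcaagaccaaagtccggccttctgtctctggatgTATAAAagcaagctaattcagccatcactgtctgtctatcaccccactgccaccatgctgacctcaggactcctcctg
Cyp2f2: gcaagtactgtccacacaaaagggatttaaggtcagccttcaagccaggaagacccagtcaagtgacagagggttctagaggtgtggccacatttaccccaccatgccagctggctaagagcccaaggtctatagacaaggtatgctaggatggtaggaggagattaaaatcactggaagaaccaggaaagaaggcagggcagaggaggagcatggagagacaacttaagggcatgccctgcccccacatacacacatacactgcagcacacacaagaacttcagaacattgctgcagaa
Cyp1a2: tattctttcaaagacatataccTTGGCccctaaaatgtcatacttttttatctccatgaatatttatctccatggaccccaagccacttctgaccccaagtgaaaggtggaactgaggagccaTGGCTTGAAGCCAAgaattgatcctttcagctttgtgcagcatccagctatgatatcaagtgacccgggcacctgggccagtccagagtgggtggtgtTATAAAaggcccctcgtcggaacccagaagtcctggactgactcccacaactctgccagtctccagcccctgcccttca
Cyp26b1: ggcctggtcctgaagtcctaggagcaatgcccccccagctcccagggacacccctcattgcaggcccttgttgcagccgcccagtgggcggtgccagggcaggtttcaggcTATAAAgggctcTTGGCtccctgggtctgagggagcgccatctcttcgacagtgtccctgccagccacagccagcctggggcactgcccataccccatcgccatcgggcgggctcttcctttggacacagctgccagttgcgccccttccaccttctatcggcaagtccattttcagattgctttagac
Cyp2s1: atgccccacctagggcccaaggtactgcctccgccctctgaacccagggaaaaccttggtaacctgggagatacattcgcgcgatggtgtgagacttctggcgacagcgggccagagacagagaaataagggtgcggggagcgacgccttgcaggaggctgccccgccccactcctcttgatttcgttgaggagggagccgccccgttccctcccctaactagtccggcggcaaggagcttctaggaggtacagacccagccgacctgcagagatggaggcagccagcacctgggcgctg

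The Cyp2a5 and Cyp2a4 windows are near copies, with 294 of 301 aligned columns identical (97.7%), and whether the array's probes tell these paralogous genes apart was not tested. TATAAA, the TATA box, begins at -29 from the start in Cyp2a5 and Cyp1a2, at -28 in Cyp2a4 and at -139 in Cyp26b1. TTGGC, a short element of nuclear factor I, begins at -125 in Cyp2a5, and Cyp2a4 has no copy of it in this window. Cyp1a2 holds TTGGC at -228 and, on the other strand and so printed as GCCAA, at -118. Its nuclear factor I palindrome at -127 overlaps the second of these. Cyp26b1 has TTGGC at -127.

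Promoters were listed for 71 of 97 members, in 79 entries. TATAAA was in 30 of these 79 (38.0%) and in 13.6% of all 32851 promoters, and TTGGC in 50 (63.3%) against 46.7%. The palindrome was in 2 (2.53%) against 0.807%. GCGTG, the core of the element bound by the dioxin receptor, was in 15 (19.0%) against 32.4%, and the palindrome bound by Olf1/Ebf factors in 1 (1.27%) against 0.904%. These are matches of letters on both strands and describe the windows only.

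In clean air, 3 members were higher in GFP+ cells, Cyp26b1, Cyp2s1 and Cyp2u1, and 1 was lower, Cyp39a1. That is 4 of 97, where 15.4% of all genes passed the limma test at an adjusted p under 0.05, 5.83% as higher and 9.58% as lower. Without adjustment 17 of 97 had p under 0.05, against 27.3% of all genes. The median difference of the members, 0.12, was near the 0.11 of all genes. All 4 called members were among the 24 brighter ones, 3 higher and 1 lower. Of all 11655 genes as bright 8.3% were called higher and 11.7% lower. Of the 7850 dimmer genes it was 2.18% and 6.36%, and most members are dim.

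Cyp26b1 clears retinoic acid, the vitamin A derivative that activates retinoic acid receptors. Its clean air GFP+ signals in pools 1 to 4 were 8.53, 7.49, 7.58 and 7.95, and the GFP- signals were 7.14, 6.83, 6.57 and 6.37. Every GFP+ array lay above every GFP- array, and the difference was 1.16 ± 0.41 (SD, n = 4), or 2.24-fold, with a limma adjusted p of 0.00480. The GFP- signals lay near the negative controls, whose array medians ran from 5.80 to 6.77, so the size of the fold is uncertain. With octanoic acid GFP+ cells read 7.91, 7.49, 6.76 and 8.10 and GFP- cells 7.33, 6.41, 7.00 and 6.95. Pool 3 was the one pool with the lower value in GFP+ cells, and the difference of 0.64 ± 0.64 did not pass (adjusted p 0.0877). Without that pool it was 0.94 ± 0.31 over 3 pools, with an adjusted p of 0.0124, and centring arrays on their medians (0.95, adjusted p 0.0105) or quantile normalization (0.91, adjusted p 0.0207) also brought it past the threshold. Under these scalings 39.9% and 13.3% of all genes were called higher with octanoic acid, against 6.26% as deposited. Passing there is therefore not particular to this gene.

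Cyp26a1 and Cyp26c1, the other retinoic acid hydroxylases, lay below the control median on every array, at 3.06 to 4.77 and 3.54 to 3.89, so no level can be read for them. Of 12 further retinoid pathway genes, 3 were called higher and 4 lower in GFP+ cells in clean air, and 1 higher and 3 lower with octanoic acid. Of all genes 5.83% were called higher and 9.58% lower in clean air, and 6.26% and 10.9% with octanoic acid. Rarb, a retinoic acid receptor, was higher by 0.99 in clean air and 1.13 with octanoic acid (limma adjusted p 0.00523 and 0.00198), and Rara, another receptor, was lower by 1.48 and 2.12. Dhrs3, which reduces retinal, was higher by 0.56 in clean air. For Crabp1, Aldh1a1 and Crabp2 the GFP+ means lay below the negative-control median, so the GFP- mean was set against that median and each fold is a lower bound. Crabp1, which binds retinoic acid in the cytosol, averaged 10.08 and 9.69 in GFP- cells and was at least 14.8-fold and 11.2-fold lower in GFP+ cells (adjusted p 6.99e-08 and 1.99e-07). The bounds for Aldh1a1, which makes retinoic acid, were 1.59-fold under clean air and 1.59-fold under octanoic acid, and Crabp2 had a bound of 1.54-fold in clean air. Aldh1a3, counted as higher in clean air, was below the control median on all 16 arrays, so no level can be read for it.

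Cyp2s1, an epithelial P450, and Cyp2u1, a fatty acid hydroxylase, were the other members higher in GFP+ cells in clean air. Cyp2s1 gave 13.04, 12.88, 13.05 and 13.05 in GFP+ cells against 12.39, 12.43, 12.50 and 11.63 in GFP- cells. The groups did not overlap, and the difference of 0.77 ± 0.44, or 1.70-fold, had a limma adjusted p of 0.0220. It rested in part on pool 4, whose GFP- array was low: without pool 4 it was 0.55 with an adjusted p of 0.130, and without pool 1 0.81 with 0.0584. With octanoic acid the GFP+ arrays read 12.98, 12.94, 12.07 and 12.99 and the GFP- arrays 12.55, 12.06, 12.14 and 12.48. Pool 3 was again the low GFP+ array, and the difference was 0.43 ± 0.39 (adjusted p 0.171) with it and 0.60 ± 0.25 (adjusted p 0.0935) without it.

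Cyp2u1 read 11.12, 10.52, 11.07 and 10.57 in clean air GFP+ cells against 10.57, 9.92, 10.45 and 9.66 in GFP- cells. The ranges overlapped, but GFP+ was higher in 4 of 4 pools by 0.55 to 0.91. The difference of 0.67 ± 0.17, or 1.59-fold, had an adjusted p of 0.0178 by limma, which became 0.0571, 0.0552 and 0.0958 when pool 2, 3 or 4 was left out. With octanoic acid the pools gave 0.05, 0.74, 0.15 and 0.78, mean 0.43 ± 0.39 (adjusted p 0.109), or 0.52 ± 0.41 without pool 3 (adjusted p 0.101).

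**Figure D1:**
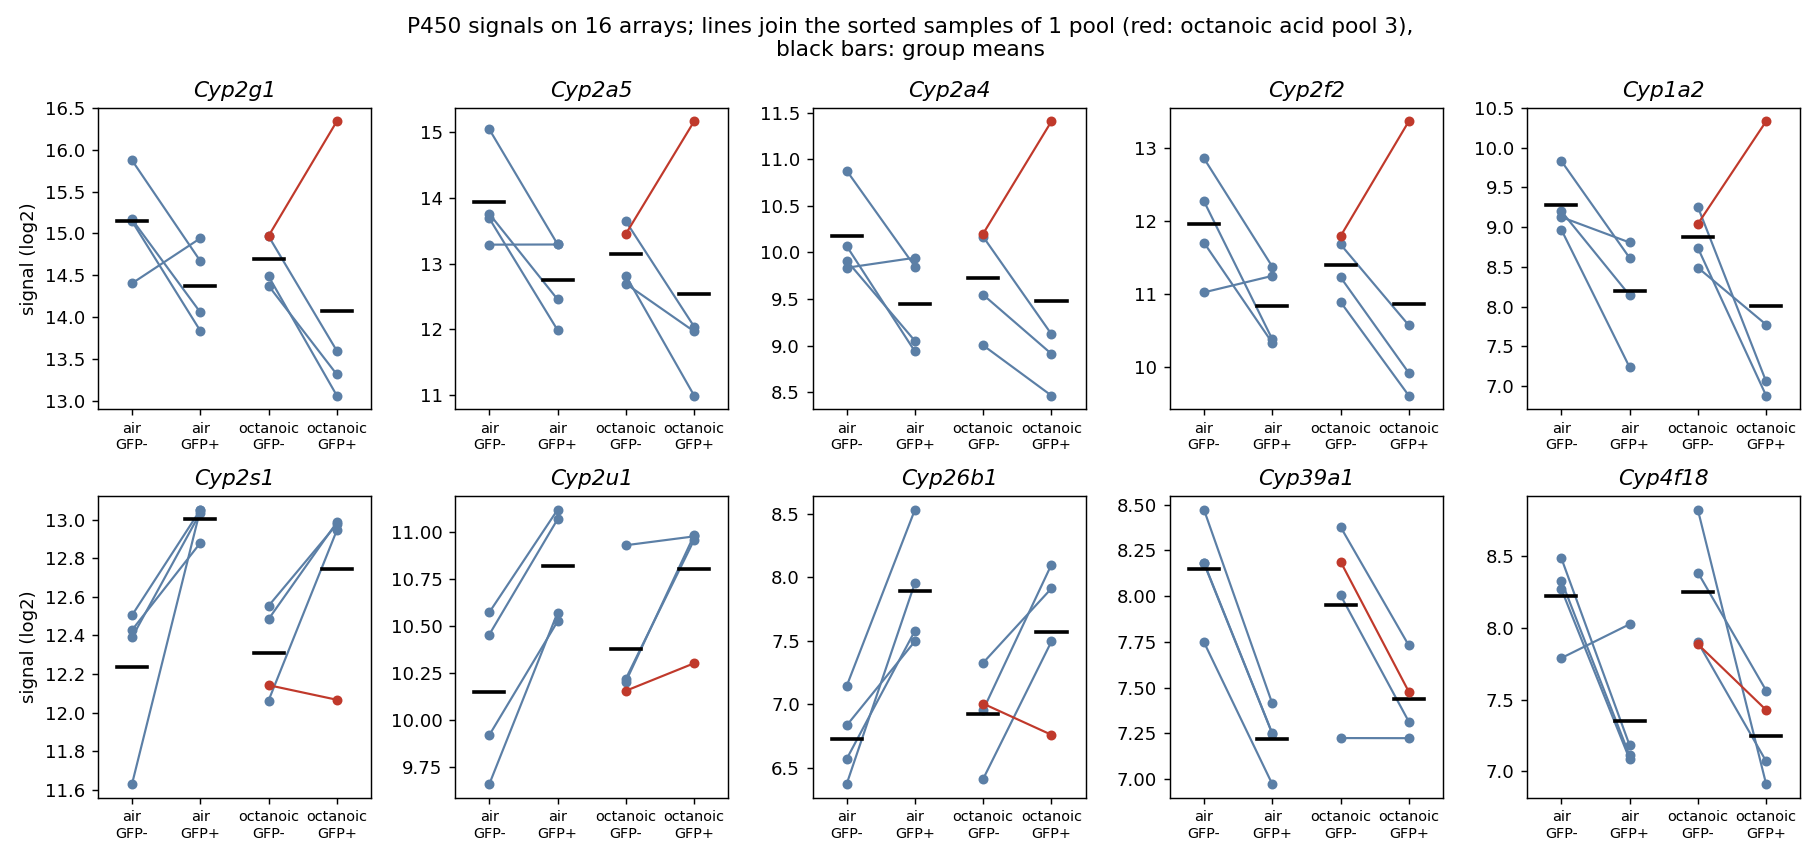
Log2 signal on each of the 16 arrays for members described in the text, 1 panel per gene, grouped as clean air and octanoic acid GFP+ and GFP- cells (points: pools, with a line joining the sorted samples of a pool, red for octanoic acid pool 3; black bars: group means). In the Cyp2g1 panel the octanoic acid GFP+ array of pool 3, at 16.34, lies above the other 3 of its group at 13.07 to 13.60.

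Cyp39a1, which hydroxylates oxysterols on the way to bile acids, was the 1 member that passed under both treatments. In clean air GFP+ cells read 7.25, 7.41, 7.25 and 6.97 and GFP- cells 8.18, 8.47, 8.18 and 7.75. The groups were fully apart, with a difference of -0.92 ± 0.12, so that the GFP- level was 1.90-fold the GFP+ level (limma adjusted p 0.00156), and no pool left out ended the call. With octanoic acid the values were 7.22, 7.31, 7.48 and 7.73 against 7.22, 8.01, 8.19 and 8.38. Pool 1 showed no difference (-0.0006) and the others -0.65 to -0.71, which gave -0.51 ± 0.34 with an adjusted p of 0.0465. This call was lost when any pool other than octanoic acid pool 1 was left out, with adjusted p of 0.0593 to 0.165, and under both other scalings of the arrays (-0.21 in each, adjusted p 0.280 and 0.349).

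With octanoic acid, 4 members were higher in GFP+ cells and 5 lower, 9 of 97, against 17.2% of all genes, 6.26% as higher and 10.9% as lower. Unadjusted p was under 0.05 for 28 of 97 and for 30.3% of all genes, and the median difference was 0.23, against 0.11. The 4 higher ones, Cyp2b9, Cyp2c54, Cyp3a59 and Cyp4f41-ps, had all group means below the negative-control median, as did Cyp27a1, a mitochondrial sterol hydroxylase, among the 5 lower. Cyp2b9, for example, averaged 4.30 in GFP+ and 3.51 in GFP- cells (0.79 ± 0.30, adjusted p 0.00460). Apart from Cyp2b9, each of these 5 calls was lost when octanoic acid pool 1, 3 or 4 was left out (adjusted p 0.0557 to 0.212). No fold is given for them, and raising values to the control median brings each difference to 0. The 73 dim members had a median of 0.25, and all 7850 genes that dim 0.19, while the 24 brighter members had -0.01 and all 11655 brighter genes 0.06. Among all genes as bright 7.35% were called higher and 13.9% lower. Among the 24 brighter members 0 were higher and 4 lower: Cyp4f18, Cyp4f16, Cyp2j12 and Cyp39a1.

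**Figure D2:**
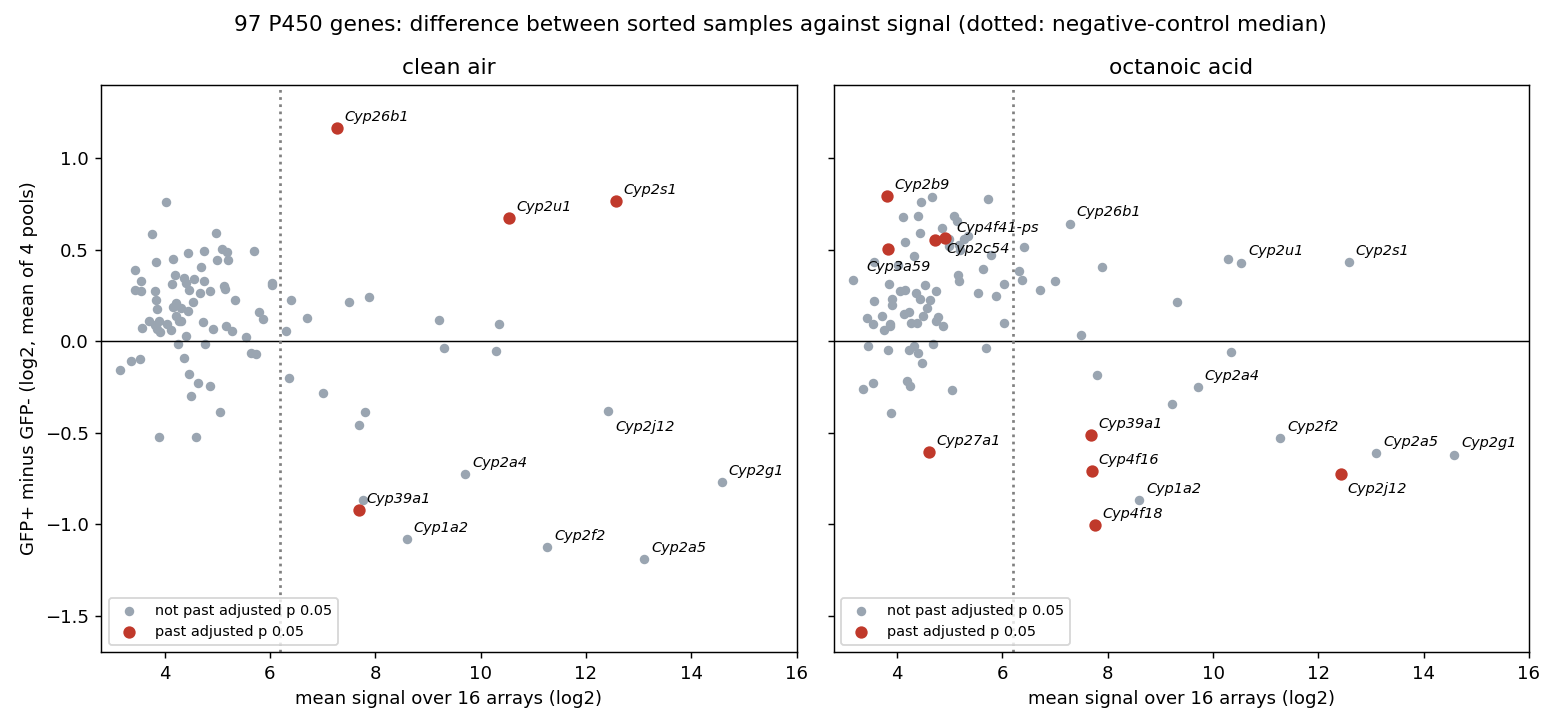
GFP+ minus GFP- difference (log2, mean of 4 pools, vertical axis) against mean signal over 16 arrays (log2, horizontal axis) for the 97 members, with clean air on the left and octanoic acid on the right; red points passed an adjusted p of 0.05 and the dotted line is the negative-control median, 6.20. The 4 members called higher with octanoic acid lie left of that line, and the 3 called higher in clean air lie right of it.

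Cyp4f18, a member of family 4 known for breaking down leukotrienes in neutrophils, gave octanoic acid signals of 7.07, 6.91, 7.43 and 7.56 in the GFP+ sort and 7.90, 8.82, 7.89 and 8.38 in the GFP- sort. The groups did not overlap, and the difference was -1.004 ± 0.63, which puts GFP- cells 2.01-fold higher (limma adjusted p 0.0299). Leaving out pool 1, 2 or 4 ended the call (adjusted p 0.0640, 0.115 and 0.0717), leaving out pool 3 did not (-1.19, adjusted p 0.0316), and it was lost when arrays were centred on their medians (-0.70, adjusted p 0.0569) or quantile normalized (-0.70, adjusted p 0.112). In clean air GFP+ cells read 7.11, 8.02, 7.09 and 7.18 and GFP- cells 8.33, 7.79, 8.27 and 8.49. Pool 2 went the other way by 0.24, and the mean of -0.87 ± 0.74 missed the threshold (adjusted p 0.0612), while without pool 2 it was -1.23 (adjusted p 0.00801). Beside this, the mean of the 7 leukocyte markers ran from 11.69 to 14.01 on GFP- arrays and from 5.98 to 7.84 on GFP+ arrays, with 7 of 7 lower in GFP+ cells; their part in the result was not tested.

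Cyp4f16, of the same subfamily, read 7.67, 7.60, 6.59 and 7.59 in octanoic acid GFP+ cells against 8.05, 7.996, 7.82 and 8.42 in GFP- cells. The groups did not overlap, and the difference was -0.71 ± 0.41 (limma adjusted p 0.0182), with the GFP- level 1.64-fold higher. Without pool 3, whose GFP+ array was the lowest, it was -0.54 (adjusted p 0.0833), without pool 4 -0.67 (0.0789), and it also missed the threshold under both other scalings (-0.41 and -0.48, adjusted p 0.0791 and 0.0778). In clean air all 4 pools were lower in GFP+ cells, by -0.08 to -0.73, with a mean of -0.46 ± 0.28 (adjusted p 0.120). Cyp4f13, another of the subfamily, gave -0.04 ± 0.35 in clean air, 0.23 when arrays were centred, and 0.22 ± 0.30 with octanoic acid. Over family 4, 0 of 21 members passed in clean air, against 15.4% of all genes, and 1 was higher and 2 lower with octanoic acid, against 6.26% and 10.9%.

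Cyp2j12 belongs to a subfamily best known for epoxidizing polyunsaturated fatty acids. With octanoic acid it read 11.67, 12.61, 11.61 and 11.99 in GFP+ cells against 12.54, 13.02, 12.90 and 12.32 in GFP- cells, lower in GFP+ in each pool though the ranges overlapped. The difference was -0.72 ± 0.45, with the GFP- level 1.65-fold higher (limma adjusted p 0.0191). It was -0.53 without pool 3 (adjusted p 0.0870), -0.68 without pool 1 (0.0745) and -0.42 after centring (0.0829). In clean air it was -0.38 ± 0.26 (adjusted p 0.209).

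The members for which the olfactory mucosa is known, Cyp2g1 and Cyp2a5, and Cyp2a4, Cyp2f2 and Cyp1a2 passed in neither sort comparison over all 8 pools. They are set together here after their values were seen, so their common direction is a description. The p values below without octanoic acid pool 3 are also descriptive, since these genes' own values set that pool apart. Each had lower means in GFP+ cells, in clean air by 0.73 to 1.19 and with octanoic acid by 0.25 to 0.87 (that of Cyp2a4 turned to 0.05 higher with centred arrays), and each went the other way in pool 3 with octanoic acid. Clean air was not uniform either. In its pool 3 Cyp2g1 (0.54), Cyp2f2 (0.23), Cyp2a4 (0.11) and Cyp2a5 (0.0023) were not lower in GFP+ cells, while Cyp1a2 was (-0.32).

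Cyp2g1, found almost nowhere but in olfactory mucosa, gave 14.06, 13.84, 14.94 and 14.67 in clean air GFP+ cells against 15.17, 15.15, 14.41 and 15.87 in GFP- cells. With octanoic acid it gave 13.07, 13.32, 16.34 and 13.60 against 14.49, 14.38, 14.97 and 14.97. In both treatments pool 3 was the pool with more signal in GFP+ cells, by 0.54 and 1.37, while the other pools had less, by -1.06 to -1.42. The differences were -0.77 ± 0.87 and -0.62 ± 1.33 (limma adjusted p 0.286 and 0.364), and that with octanoic acid was -1.28 ± 0.20 over the 3 pools left without pool 3 (adjusted p 0.0206).

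Cyp2a5, which hydroxylates coumarin and nicotine, read 12.45, 11.99, 13.29 and 13.29 in clean air GFP+ cells against 13.76, 13.69, 13.29 and 15.05 in GFP- cells. With octanoic acid the values were 10.99, 11.97, 15.17 and 12.04 against 12.82, 12.69, 13.45 and 13.64. The GFP+ array of pool 3 was the highest of all 16 and the other 3 octanoic acid GFP+ arrays lay below all 4 GFP- arrays of that treatment. The differences were -1.19 ± 0.82 and -0.61 ± 1.62 (adjusted p 0.137 and 0.431), and without octanoic acid pool 3 -1.19 and -1.39 (adjusted p 0.0170 and 0.0177). The clean air pools are the same in both fits, which differ there in the spread shared by the treatments.

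Cyp2a4, its near-copy, known as a testosterone hydroxylase, ran from 8.94 to 9.94 in clean air GFP+ cells and from 9.84 to 10.88 in GFP- cells. With octanoic acid 3 GFP+ arrays lay at 8.46 to 9.12 and that of pool 3 at 11.41, against 9.0025 to 10.20 in GFP- cells. Differences were -0.73 ± 0.57 and -0.25 ± 1.00 (adjusted p 0.171 and 0.636); the second was 0.05 after centring, 0.01 without pool 4 and -0.74 without pool 3 (adjusted p 0.0724). Without pool 3 the clean air difference passed (adjusted p 0.0383).

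Cyp2f2, the enzyme that activates naphthalene in airway club cells, gave 10.34, 10.39, 11.25 and 11.38 in clean air GFP+ cells against 11.70, 12.27, 11.02 and 12.86 in GFP- cells. With octanoic acid GFP+ cells read 9.61, 9.92, 13.36 and 10.57 and GFP- cells 10.89, 11.23, 11.79 and 11.68. Pool 3 was 1.57 higher in GFP+ cells, and the other 3 lay between -1.11 and -1.31. The differences were -1.13 ± 0.93 and -0.53 ± 1.404 (adjusted p 0.130 and 0.462), and without octanoic acid pool 3 the adjusted p was 0.0208 in clean air and, at -1.23 ± 0.11, 0.0306 with octanoic acid.

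Cyp1a2, which metabolizes caffeine and aromatic amines, read 8.14, 7.24, 8.81 and 8.61 in clean air GFP+ cells against 9.20, 8.97, 9.13 and 9.83 in GFP- cells, with no overlap. With octanoic acid it read 6.88, 7.77, 10.33 and 7.06 against 8.74, 8.49, 9.04 and 9.25. Pool 3 alone was higher in GFP+ cells, by 1.29. The differences were -1.08 ± 0.58 and -0.87 ± 1.57 (adjusted p 0.146 and 0.223), and without octanoic acid pool 3 the adjusted p was 0.0187 in clean air and, at -1.59 ± 0.78, 0.00520 with octanoic acid.

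**Figure D3:**
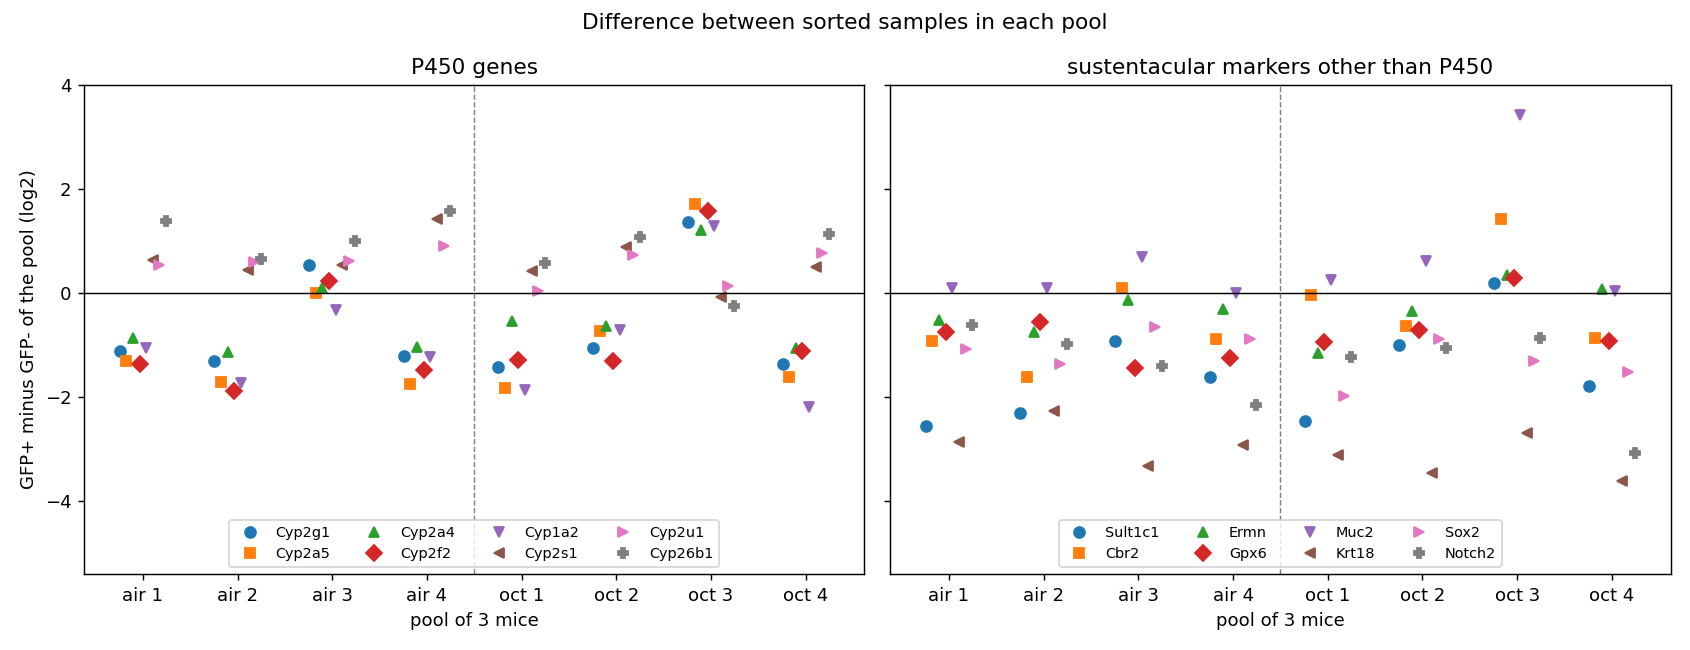
GFP+ minus GFP- difference (log2) in each pool of 3 mice for 8 P450 members on the left and for 8 sustentacular markers that are no P450 genes on the right; air and oct stand for clean air and octanoic acid. In octanoic acid pool 3, Cyp2g1, Cyp2a5, Cyp2a4, Cyp2f2 and Cyp1a2 lie above 0 and Krt18, Sox2 and Notch2 below it.

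Over all members, leaving out octanoic acid pool 3 gave 4 higher and 5 lower in clean air, where 6.57% and 9.84% of all genes were called, and 2 higher (Cyp2b9 and Cyp26b1) and 5 lower (Cyp1a2, Cyp2a5, Cyp2f2, Cyp2g1 and Cyp4f18) with octanoic acid, where 4.45% and 9.72% were. Of the 9 members called with octanoic acid over all pools, 2 were called again. Other pools moved the counts too: the clean air count was 2 without clean air pool 4, and the octanoic acid count was 5, 15 and 2 without octanoic acid pools 1, 2 and 4 and 5 without clean air pool 1 or 3. The shares of all genes are not given for these other pools, so the counts describe the members only.

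Calls of single members also depended on the fit. With both sorts of a pool taken as independent, Cyp2u1 in clean air (limma adjusted p 0.0838) and Cyp2j12 (0.0711) and Cyp39a1 (0.143) with octanoic acid no longer passed. Fitted on octanoic acid pools alone, Cyp4f16 (0.0583), Cyp2j12 (0.0622) and Cyp39a1 (0.141) did not pass. With values floored at the control median, Cyp2s1 in clean air (0.0717) and Cyp4f18 (0.129), Cyp2j12 (0.0526) and Cyp39a1 (0.0502) with octanoic acid did not, and Cyp39a1 also missed with an intensity trend in the variance model (0.0782).

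Scaling of the arrays moved the counts most. With arrays centred on their medians the clean air calls among the members were 21 higher and 1 lower and those with octanoic acid 51 higher and 0 lower, against 31.2% and 8.05% and 39.9% and 8.79% of all genes. The median of all genes itself moved from 0.11 to 0.38 and 0.42 under that scaling, and the members' medians from 0.12 to 0.39 and from 0.23 to 0.53. Centring shifts every gene's mean difference under a treatment by the same amount. Calls gained or lost by it are therefore not separate findings gene by gene. Quantile normalization gave 5 higher and 2 lower, beside 9.3% and 9.14% of all genes, and 13 higher and 2 lower, beside 13.3% and 10.4%.

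Sustentacular markers other than P450 genes were measured for 10 of 11 names. Of these, 0 were higher and 5 lower in GFP+ cells in clean air, where 5.83% and 9.58% of all genes were. With octanoic acid 0 were higher and 4 lower, beside 6.26% and 10.9% of all genes. The mean of the 10 markers was 6.86 to 7.47 on clean air GFP+ arrays and 7.68 to 8.52 on all GFP- arrays. With octanoic acid the GFP+ arrays of pools 1, 2 and 4 stood at 6.61 to 7.00 and that of pool 3 at 8.13. In that pool 7 of the 10, Muc2 (3.43), Cbr2 (1.42), Epas1 (0.76), Ermn (0.35), Gpx6 (0.30), Sult1c1 (0.19) and Hes1 (0.17), were higher in GFP+ cells, whereas Krt18 (-2.69), Sox2 (-1.30) and Notch2 (-0.87) were lower there as in every other pool. Epas1 and Hes1 lay below the control median on all 16 arrays and Ermn was above it on 4, so no level can be read from these 3. In GFP+ cells Sox2 averaged 5.91 in clean air and 5.63 with octanoic acid, and Notch2 5.97 and 6.06. These means are also below that median, so the size of the Sox2 and Notch2 differences cannot be read. Leukocyte markers and most microvillous and tuft cell markers were lower in GFP+ cells too. Which cells the Krt18, Sox2 and Notch2 signals come from was not tested. Bowman gland markers averaged 6.66 to 7.97 on GFP+ and 8.48 to 10.18 on GFP- arrays. Of these 9 markers 4 were lower and 0 higher under each treatment, beside the same shares of all genes. The 4 were Sox9 (-4.25 and -4.40), Bpifb3 (-1.10 and -0.80), and Ltf and Lyz1, whose GFP+ means lay below the control median and which were at least 127-fold and 217-fold, and 4.39-fold and 6.5-fold, lower. Ltf and Lyz1 are also known as genes of myeloid cells, whose marker Lyz2 was lower as well (-7.16 and -7.35). The part of these cells in the P450 values was not tested.

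Cyp20a1, Cyp2d13 and Cyp2c23, the rest of the 12 brightest members, had no call under either treatment. Cyp20a1 gave 0.09 ± 0.35 in clean air and -0.06 ± 0.40 with octanoic acid, and the second was 0.25 after centring and 0.06 after quantile normalization. Cyp2d13 gave -0.06 ± 0.39, or 0.22 after centring, and 0.45 ± 0.52. Cyp2c23, known as an arachidonic acid epoxygenase of the kidney, gave 0.12 ± 0.40 and -0.34 ± 0.80, or 0.04 without pool 3, and neither gene's sign is settled.

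**Figure D4:**
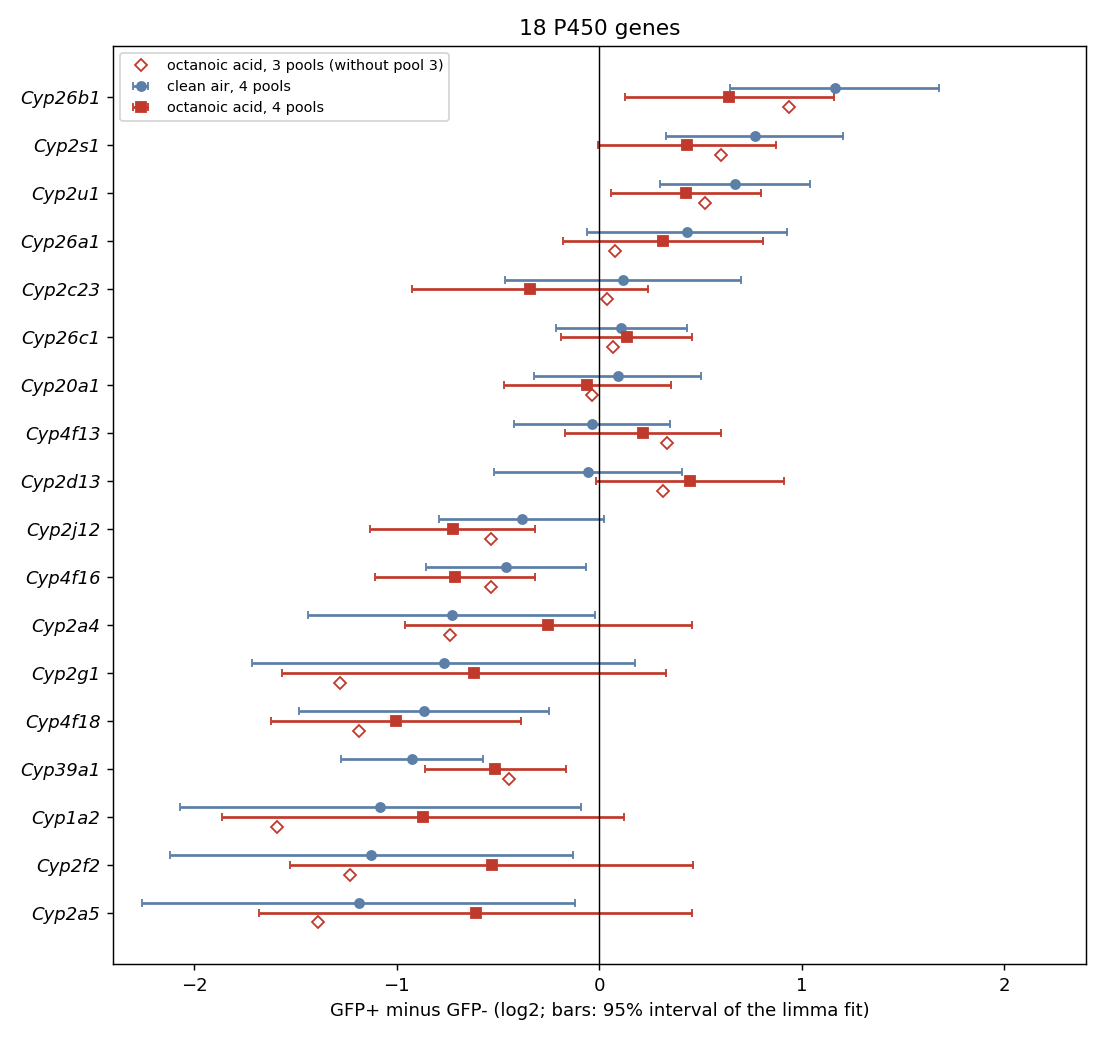
GFP+ minus GFP- difference (log2) of 18 members with the 95% interval of the limma fit over all 8 pools, in clean air (blue circles) and with octanoic acid (red squares); open diamonds give the octanoic acid mean over 3 pools without pool 3. The interval of Cyp26b1 in clean air runs from 0.65 to 1.68 and that of Cyp39a1 from -1.27 to -0.58.

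Whether octanoic acid changed the family was tested on the GFP+ minus GFP- difference and in each sort on its own. These comparisons share arrays. In the difference, 0 of 97 members passed and 0 of all genes did (0%), with a smallest adjusted p of 0.94 by limma, and unadjusted p was under 0.05 for 5 members and for 4.47% of all genes. In GFP+ cells it was 0 of 97, with unadjusted p under 0.05 for 4 and for 3.67% of all genes, and in GFP- cells 0 of 97, with 3 and 3.8%. These shares are near the background. The 5 in the difference were Cyp4f37, Cyp2d40, Cyp2b9, Cyp2c66 and Cyp2c69, the 4 in GFP+ cells Cyp2c66, Cyp2d40, Cyp4f37 and Cyp2c37, and the 3 in GFP- cells Cyp7b1, Cyp4x1 and Cyp2a5.

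The intervals leave room for sizeable changes, some of them in either direction and others mainly as a decrease. For Cyp2a5 the octanoic acid minus clean air difference in GFP- cells was -0.79 (95% interval -1.57 to -0.02, adjusted p 0.985 by limma), and in GFP+ cells the interval ran from -1.84 to 1.41. Cyp2g1 had intervals of -1.07 to 0.17 in GFP- and -1.66 to 1.07 in GFP+ cells. For Cyp26b1 the change of the difference was -0.52 (-1.25 to 0.21). For Cyp4f18, of the family that hydroxylates fatty acids, it was between -1.01 and 0.74. A change of 2-fold, 1 on the log2 scale, lies inside several of these intervals.

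Genes that serve the P450 system were read from lists of known function, beside 15.4% of all genes called in clean air, and 6.26% called higher and 10.9% lower with octanoic acid. Of 8 electron partners and helpers 6 were measured. Por, the gene of P450 oxidoreductase, and Fdxr were not, so nothing can be said of them. In clean air 0 passed, and with octanoic acid 0 were higher and 2 lower in GFP+ cells: Cyb5a, cytochrome b5, by -0.54 ± 0.21 (limma adjusted p 0.0272) and Cyb5r3, its reductase, by -1.13 ± 0.94 (adjusted p 0.0203). Without pool 3 these were -0.46 and -0.67 with adjusted p of 0.0971 and 0.0558. Of 9 haem genes measured 0 passed in clean air and 2 were lower with octanoic acid: Alad by -0.88 ± 0.33 and Fech, which puts iron into the ring, by -1.12 ± 0.53 (adjusted p 0.00558 and 0.00148), and both passed without pool 3 (0.0266 and 0.00920). Alas2, the erythroid enzyme of the first step of haem synthesis, was lower in GFP+ cells, at -1.505 in clean air and -1.68 with octanoic acid (adjusted p 0.000619 and 0.000246). Alas2 (10.24) and Fech (11.22) both read highest on the GFP- array of octanoic acid pool 4, where the mean of the 7 leukocyte markers was also highest, and the part of blood cells in the haem genes was not tested. Alas1, the form made in most tissues, gave -0.57 and -0.52 (adjusted p 0.0901 and 0.111). Of 9 regulators 0 passed in clean air and 1 with octanoic acid, Nr1i2, the pregnane X receptor, at 0.51 with a mean signal of 5.23, below the control median (0.0555 without pool 3). Ahr, the dioxin receptor, gave 0.46 and 0.51 (adjusted p 0.268 and 0.192).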

How the data were processed

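Olfactory mucosa RNA, 50 to 100 ng a sample, was hybridized to 16 arrays. The authors made the deposited log2 signals with Affymetrix Expression Console, per the submitters' processing notes; version, summary and background steps are not given in the sources used here, and that they are log2 was judged by their range (2.13 to 19.5). Of 28846 probe sets 19572 had 1 gene symbol and 2634 gene probe sets had none; the brightest probe set per gene gave 19505 genes. All 97 members matched RefSeq by Entrez identifier, used with GRCm38.p6 for names and gene order.

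limma 3.58.1 in R 4.3.3 (lmFit, eBayes, two-sided) tested, over all genes, the within-pool differences of each treatment, their change with octanoic acid, and the treatments within GFP+ and GFP- arrays. P values were Benjamini-Hochberg adjusted over 19505 genes at 0.05. The fits were tested on simulated data. Pools are separate sets of mice, both sorts of a pool sharing its mice. Octanoic acid and clean air pools share numbers in the labels. Same-numbered pools deviated together with r of 0.179, 0.110, 0.237 and 0.100 for the differences, 0.371, 0.100, 0.219 and 0.138 on GFP+ arrays, and 0.408, 0.100, -0.0986 and 0.153 on GFP- arrays; the numbers were not used as a pairing in the results given.

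Members and lists were chosen with earlier results of these data known. Named in full were the 12 brightest members, called members with a group mean above the negative-control median, the 3 Cyp26 genes and the Cyp2a4 and Cyp2a5 pair. Other scalings, dim-gene filters, probe set rules, variance models and left-out pools were tried; a floor at the negative-control median was chosen after seeing the data.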

Additional observations from a re-analysis of the deposited data

Results flagged for a closer look

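Of 108 groups of 4 values examined for the members named in full, 14 held a sample far from the others, 7 of them in octanoic acid pool 3. By Dixon's rule chance alone flags about 5% of such groups. These 108 share arrays and genes, so the count of 14 is no test against that rate. In octanoic acid pool 3 the GFP+ arrays stood alone for Cyp2g1 (16.34), Cyp2s1 (12.07), Cyp2u1 (10.30), Cyp4f16 (6.59) and Cyp26a1 (4.77), and so did the GFP+ minus GFP- differences of Cyp2g1 (1.37) and Cyp2f2 (1.57).

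The difference of Cyp2g1 in clean air pool 3 (0.54) was above those of the other 3 clean air pools. Cyp2s1 was low on the clean air GFP+ array of pool 2 (12.88), where the other 3 were nearly equal, and on the clean air GFP- array of pool 4 (11.63). Cyp2u1 was high on the octanoic acid GFP- array of pool 1 (10.93). Cyp39a1 had a difference of -0.0006 in octanoic acid pool 1, above the other 3 pools. Cyp4f18 was high on the clean air GFP+ array of pool 2 (8.02), and its difference there was 0.24, against less than -1 in the other 3.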

How the results depend on the processing

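The clean air count of 4 called members became 22 with arrays centred on their medians, 7 with quantile normalization and 9 when fitted on clean air pools alone, and 2 to 9 with 1 pool left out. The octanoic acid count of 9 became 51 with centring, 15 with quantile normalization, 4 with only the genes above the negative-control median, 1 with values floored there, and 2 when fitted on those pools alone, and 2 to 15 with 1 pool left out. With no replicate block, that is with the sorts of a pool taken as independent, the counts were 5 in clean air and 5 with octanoic acid. A replicate block on the number shared by the treatments left 0 called members in each of the 3 octanoic acid comparisons. Shares of all genes were given above for the scalings and for octanoic acid pool 3 left out. For the other settings the counts stand without them and do not show whether the family moved apart from other genes. The cause of these shifts was not tested.

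Of 286 values of single members recomputed in clean air 261 kept direction and side of the threshold, and 269 of 361 with octanoic acid. Signs turned for Cyp2d13 (0.22) and Cyp4f13 (0.23) with centring in clean air, and with octanoic acid for Cyp20a1 (0.25 with centring, 0.057 with quantile normalization), Cyp2a4 (0.052 with centring) and Cyp26c1 (-0.0007 with quantile normalization). With 1 pool left out they turned, over these ranges, in clean air for Cyp20a1 (-0.063 to 0.22), Cyp2d13 (-0.22 to 0.084, with 0.0078 without pool 1), Cyp4f13 (-0.16 to 0.11) and Cyp2c23 (-0.076 to 0.21), with octanoic acid for Cyp20a1 (-0.22 to 0.11), Cyp2a4 (-0.74 to 0.011) and Cyp2c23 (-0.59 to 0.037), and for Cyp2a5 in the change of the difference (-0.20 to 0.98) and in GFP+ cells (-1.09 to 0.30). Signal under the negative controls limits the 73 dim members.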
